A study of Mus musculus with 8 samples.

Results

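The 10 chemokine genes of the spinal cord described here were taken by name from the 47643 gene rows of the deposited count table, and all 10 were found there. They set chemokines that microglia can make when stimulated against Cxcl12 and Cx3cl1, which neural and vascular cells make at rest. Ccl2, Ccl3, Ccl4, Ccl5 and Ccl12 were read as the 5 inducible CC chemokines, and Ccl6, Ccl9 and Cxcl16 as chemokines of resident myeloid cells. Chemokines are small secreted proteins that bind G protein-coupled receptors and steer the movement of cells along their gradients. In the central nervous system, microglia release CC chemokines such as Ccl3 and Ccl4 after injury or loss of myelin, often downstream of NF-kappaB. Neurons carry the membrane-bound Cx3cl1, whose receptor Cx3cr1 sits on microglia.

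Spinal cords of 8 mice of the C57BL/6 strain gave 1 RNA library each, 4 labelled homozygous and 4 labelled heterozygous. Tamoxifen, a drug used to switch on inducible recombinases, was to be given at 100 mg/kg to delete Arf1, the gene of a small GTPase of the Golgi. The labels give this protocol for every sample and do not say whether the heterozygous mice were injected. They give an age of 2 to 10 months for the study, and name neither the recombinase, its promoter or cell type, nor the sex or age of any animal. The submitters' design note places the question in neurons, and the series title in microglial inflammation and loss of myelin.

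Depth was 26321522 to 37879426 expected counts per library in the homozygous group and 29857210 to 37803594 in the heterozygous group. Arf1 stood at 307, 22.5, 22.8 and 39.9 CPM (counts as a share of the TMM-scaled library total, on the usual CPM scale) in homozygous replicates 1 to 4, against 334, 296, 322 and 303 CPM in the heterozygous libraries. The library labelled homozygous replicate 1 thus lay within the heterozygous range and went against its label, so each comparison is given over all 8 libraries and over the 7 without it. The log2 fold change of Arf1 was -1.67 (SE 0.95, edgeR adjusted p = 0.42) over 8 libraries. It was -3.46 (SE 0.21, edgeR adjusted p = 0.000796) over 7, but the omitted library was chosen by its Arf1 level, so that this p is no independent test of Arf1. Neuronal marker genes summed to 7170 to 8157 CPM in homozygous and 7677 to 9078 CPM in heterozygous libraries, and oligodendrocyte markers to 7694 to 15096 CPM in homozygous and 9799 to 11208 CPM in heterozygous libraries. Homozygous replicate 3 had 2.44% ribosomal bases, and the other libraries 0.1% to 0.34%. Homozygous replicate 4 had an RNA integrity number of 8, and the others of 9.

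The 7 Ccl genes share chromosome 11 of the mouse (GRCm38), within 1629 kb. In order along the chromosome they are Ccl2 (82035571 to 82037453), Ccl12 (82101845 to 82103400), Ccl5 (83525778 to 83530518), Ccl9 (83572919 to 83578636), Ccl6 (83587882 to 83593087), Ccl3 (83647844 to 83649355) and Ccl4 (83662584 to 83664683). Ccl3 and Ccl4 are 13.2 kb apart and Ccl9 and Ccl6 9.2 kb apart. Arf1 is on the same chromosome, at 59211412 to 59228270, between 22.8 and 24.4 Mb from the Ccl genes and 11.2 Mb from Cxcl16. Cxcl16 spans 70453983 to 70459984, Cxcl12 lies on chromosome 6 at 117168535 to 117181367 and Cx3cl1 on chromosome 8 at 94772009 to 94782427. The RefSeq promoter table (GRCm38.p6) held 6 of the 10 genes, namely Ccl3, Ccl6, Ccl9, Ccl12, Cxcl12 and Cx3cl1. The 250 bases before the RefSeq start are printed for Ccl3, the member on which the comparison turns, and for its neighbours Ccl6 and Ccl9, the members of the table whose levels were most like that of Ccl3. All 3 windows are on the minus strand and read 5′ to 3′ in the direction of the gene, at chr11:83649379-83649628 for Ccl3, chr11:83593088-83593337 for Ccl6 and chr11:83578637-83578886 for Ccl9. Capitals mark matches to the motifs searched on both strands, namely the NF-kappaB consensus, the AP-1 motif TGANTCA and the TATA motif TATAAA.
Ccl3: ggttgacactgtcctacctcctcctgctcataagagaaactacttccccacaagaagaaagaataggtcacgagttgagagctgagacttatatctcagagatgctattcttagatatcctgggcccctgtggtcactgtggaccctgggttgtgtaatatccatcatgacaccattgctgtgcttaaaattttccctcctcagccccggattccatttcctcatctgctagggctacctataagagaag
Ccl6: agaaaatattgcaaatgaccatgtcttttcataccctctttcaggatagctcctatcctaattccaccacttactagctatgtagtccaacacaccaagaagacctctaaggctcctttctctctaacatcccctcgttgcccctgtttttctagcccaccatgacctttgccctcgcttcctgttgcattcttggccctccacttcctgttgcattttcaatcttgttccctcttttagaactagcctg
Ccl9: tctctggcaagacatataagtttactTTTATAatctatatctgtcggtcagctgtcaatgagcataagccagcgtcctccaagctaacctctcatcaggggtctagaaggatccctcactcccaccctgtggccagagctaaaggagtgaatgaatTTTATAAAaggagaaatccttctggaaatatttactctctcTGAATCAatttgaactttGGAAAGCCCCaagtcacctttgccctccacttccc

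The Ccl9 window held an NF-kappaB match starting 35 bases before the start, an AP-1 match at 53 bases, and TATA matches at 224, 94 and 92 bases, the last pair overlapping on opposite strands. The windows of Ccl3 and Ccl6 held no match. Elsewhere among the 6 windows a TATA match lay 31 bases before the start of Ccl12 and 6 bases before that of Cx3cl1, and Cxcl12 had none. Among 32851 RefSeq promoters searched in the same way, 7.25% held the NF-kappaB consensus, 6.75% the AP-1 motif and 12.4% the TATA motif. A match here is a description of letters and not a binding site.

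Cx3cl1 made up most of the chemokine RNA in every library. On the TPM scale, which divides by transcript length, the level of Cx3cl1 was 296 ± 44.4 TPM in homozygous and 345 ± 42.2 TPM in heterozygous cords (SD, n = 4 each). Cxcl12 followed at 28.8 ± 4.97 TPM in homozygous and 33.4 ± 4.73 TPM in heterozygous cords. The ranges of these leading genes did not overlap with each other or with the gene ranked after them in either group. The remaining 8 genes averaged between 0.345 TPM for Ccl2 and 5.73 TPM for Ccl6 in homozygous cords, and between 0.162 TPM for Ccl4 and 2.63 TPM for Ccl9 in heterozygous cords. Among these 8, each gene's range overlapped with that of its neighbour in the order, so neighbouring ranks within a group do not differ beyond their spread. Ranks further apart could differ. In homozygous cords the lowest Ccl6 value, 3.34 TPM, was above the highest of Cxcl16, 2.14 TPM. In heterozygous cords the lowest Ccl9 value, 1.87 TPM, was above the highest of Ccl2, 0.66 TPM.

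The order of the lower genes was not the same in the genotypes. Ccl3 ranked 5 of 10 by mean TPM in homozygous cords (2.54 ± 1.82 TPM) and 9 of 10 in heterozygous cords (0.247 ± 0.165 TPM). Ccl4 ranked 8 in homozygous cords (1.18 ± 1.11 TPM) and 10 in heterozygous cords (0.162 ± 0.139 TPM). Without homozygous replicate 1, Ccl3 ranked 4 at 3.19 ± 1.57 TPM (SD, n = 3) and Ccl4 ranked 6 at 1.5 ± 1.09 TPM. Cx3cl1 took 89.4%, 88.2%, 87.7% and 81.4% of the summed TPM of the 10 genes in homozygous libraries 1 to 4, against 91.9%, 88.9%, 87.3% and 87.2% in the heterozygous libraries.

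**Figure D1:**
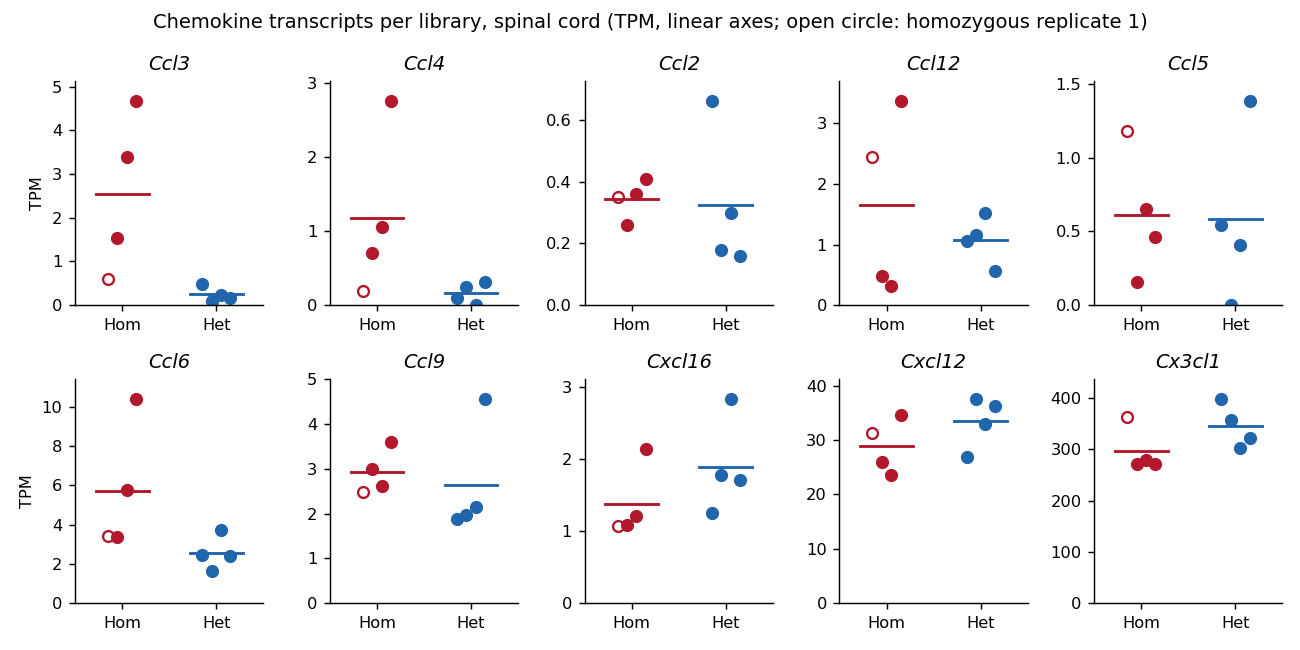
Level of each of the 10 chemokine genes in TPM on linear axes that start at 0, with 1 point per library, a line at the group mean, homozygous left of heterozygous, and the library labelled homozygous replicate 1 as an open circle. Ccl3 is higher in all 4 homozygous libraries (0.61 to 4.66 TPM) than in any heterozygous library (0.10 to 0.48 TPM), while the groups overlap for Cxcl12 and Cx3cl1.

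Ccl3, a ligand of Ccr1 also known as MIP-1α, was higher in every homozygous library than in any heterozygous library. It had 8, 16, 35 and 52 counts in homozygous replicates 1 to 4, against 6, 1, 3 and 2 counts in the heterozygous replicates. Scaled for depth, these were 0.209, 0.595, 1.41 and 1.70 CPM in the homozygous and 0.160, 0.0332, 0.0822 and 0.0524 CPM in the heterozygous libraries. The library labelled homozygous replicate 1 was the lowest of its group and lay nearest to the heterozygous values. The homozygous mean of 0.978 ± 0.693 CPM was 11.9 times the heterozygous mean of 0.0820 ± 0.0559 CPM (SD, n = 4 each). Over 8 libraries Ccl3 was below the filter on low counts and had no edgeR test with it. An exact two-sided permutation test over the libraries gave p = 0.0286, which is the smallest value that 4 against 4 libraries allow. This was 1 of 5 such tests, on the members below the filter, and is not adjusted for them.

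Over the 7 libraries Ccl3 passed the filter and edgeR's test. Its mean was 1.23 ± 0.571 CPM in homozygous replicates 2 to 4 and 0.0820 ± 0.0559 CPM in heterozygous libraries (SD, n = 3 and 4), a log2 fold change of 3.82 (SE 0.51, 95% interval 2.68 to 4.96, edgeR adjusted p = 0.016). Ccl3 passed the filter only through the homozygous libraries, so a gene admitted in this way had to differ, and the heterozygous group rests on 12 counts in all. The call was lost without homozygous replicate 3 (edgeR adjusted p = 0.0724) and without heterozygous replicate 4 (edgeR adjusted p = 0.0568), within alternatives whose adjusted p ran from 0.000622 to 0.0724. In bulk tissue, fewer cells of a type and less RNA per cell cannot be told apart, here or for any gene below.

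Ccl4, or MIP-1β, a chemokine of activated myeloid cells encoded beside Ccl3, had 2, 6, 9 and 25 counts in homozygous replicates 1 to 4, against 1, 2, 0 and 3 counts in the heterozygous replicates. In CPM these were 0.0522, 0.223, 0.363 and 0.816 in the homozygous and 0.0267, 0.0665, 0 and 0.0785 in the heterozygous libraries. Homozygous replicates 2, 3 and 4 lay above every heterozygous library and the library labelled homozygous replicate 1 lay among them. A count of 3, the limit that a count of 0 allows, equals 0.0784 to 0.121 CPM in the homozygous and 0.0785 to 0.0997 CPM in the heterozygous libraries, so the heterozygous group sat at this floor. The means were 0.363 ± 0.327 CPM in homozygous and 0.0429 ± 0.0362 CPM in heterozygous libraries (SD, n = 4 each), and an exact two-sided permutation test gave p = 0.0857. Over 7 libraries the groups did not overlap, and the exact permutation p was 0.0571, the smallest that 3 against 4 libraries allow.

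Without a filter on low counts, edgeR tested all 10 genes. The log2 fold change of Ccl4 was then 2.97 (SE 0.84, edgeR adjusted p = 0.159) over 8 libraries and 3.35 (SE 0.69, edgeR adjusted p = 0.0183) over 7. That of Ccl3 was 3.46 (SE 0.69, edgeR adjusted p = 0.0834) and 3.81 (SE 0.49, edgeR adjusted p = 0.000622).

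**Figure D2:**
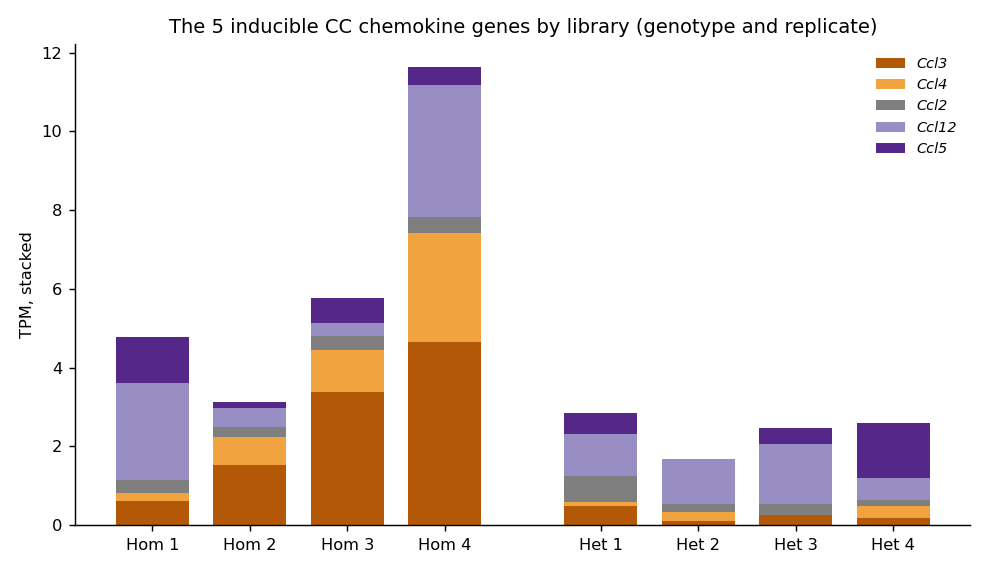
Level in TPM of the 5 inducible CC chemokine genes, stacked for each library, with the 4 homozygous libraries left of the 4 heterozygous ones. The stacks reach 4.78, 3.13, 5.77 and 11.6 TPM in the homozygous and 2.84, 1.67, 2.47 and 2.58 TPM in the heterozygous libraries, and in the library labelled homozygous replicate 1 most of the stack is Ccl12 and Ccl5 rather than Ccl3 and Ccl4.

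Ccl2, Ccl12 and Ccl5, the other inducible CC chemokines, had overlapping groups with and without homozygous replicate 1. Ccl2, or MCP-1, which draws monocytes through Ccr2, had 5, 3, 4 and 5 counts in homozygous and 9, 2, 4 and 2 counts in heterozygous libraries. Its means of 0.142 ± 0.0249 CPM in homozygous and 0.117 ± 0.0857 CPM in heterozygous libraries (SD, n = 4 each) were near the floor, and the exact two-sided permutation p was 0.629 with and without homozygous replicate 1. The highest library for Ccl2 was heterozygous replicate 1, and the groups overlapped.

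Ccl12, known as MCP-5 and also a ligand of Ccr2, had 19, 3, 2 and 22 counts in homozygous replicates 1 to 4, against 8, 7, 11 and 4 counts in the heterozygous replicates. Homozygous replicates 1 and 4 were above every heterozygous library, and replicate 3, at 0.0806 CPM, was below them all. The homozygous group thus spread to both sides of the heterozygous group, at 0.352 ± 0.309 CPM in homozygous and 0.213 ± 0.0815 CPM in heterozygous libraries (SD, n = 4 each). The exact two-sided permutation p was 0.429 over 8 libraries and 0.8 over 7.

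Ccl5, or RANTES, known as a product of T cells, had 9, 1, 4 and 3 counts in homozygous and 4, 0, 3 and 10 counts in heterozygous libraries. The means of 0.133 ± 0.0849 CPM in homozygous and 0.113 ± 0.109 CPM in heterozygous libraries (SD, n = 4 each) were near the floor (exact two-sided permutation p = 0.771 over 8 libraries and 0.914 over 7). Of the T cell genes, Cd3e, Cd3d and Cd3g were at or under the floor in every library, while Trac, of the T cell receptor alpha chain, was at 0.627, 0.409, 0.564 and 0.457 CPM in homozygous and 0.187, 0.299, 0.164 and 0.314 CPM in heterozygous libraries. Cd8a and Cd8b1 went the other way, with overlap. Cd8a reached 0.0372 CPM in homozygous and 0.236 CPM in heterozygous libraries, and Cd8b1 reached 0.0784 and 0.164 CPM. The groups did not overlap for Trac, which did not pass edgeR's test (edgeR adjusted p = 0.15 over 8 libraries and 0.176 over 7). Trac passed the filter on low counts only through the homozygous libraries in which it is high. Its separation is therefore not set against the 4.61% of all genes tested over 8 libraries with the homozygous libraries above all heterozygous ones. No difference in Ccl2 or Ccl5 was detected, on counts near the floor.

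Among the chemokines of resident myeloid cells, Ccl6 was the member nearest to Ccl3 in its pattern. Ccl6, a CC chemokine of macrophages and microglia in rodents, had 69, 54, 96 and 188 counts in homozygous replicates 1 to 4, against 57, 30, 69 and 56 counts in the heterozygous replicates. In CPM these were 1.80, 2.01, 3.87 and 6.13 in the homozygous and 1.52, 0.997, 1.89 and 1.47 in the heterozygous libraries. Homozygous replicates 2, 3 and 4 were above every heterozygous library, and the library labelled homozygous replicate 1 was within the heterozygous range.

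The Ccl6 means were 3.45 ± 2.01 CPM in homozygous and 1.47 ± 0.367 CPM in heterozygous libraries (SD, n = 4 each). The log2 fold change of 1.22 (SE 0.39, 95% interval 0.35 to 2.09) did not pass edgeR's test over 8 libraries (adjusted p = 0.182). Over 7 it was 1.44 (SE 0.35, 95% interval 0.65 to 2.23, edgeR adjusted p = 0.0791). DESeq2 called Ccl6 higher in both sets (adjusted p = 0.0391 over 8 and 0.00395 over 7 libraries, within alternatives of 0.0391 to 0.374 and 0.00395 to 0.238). Without homozygous replicate 4 the edgeR log2 fold change was 0.78 over 8 and 0.99 over 7 libraries. The authors' deposited table of their comparison, 185 genes with 75 of positive and 110 of negative log2 fold change, lists Ccl6 as its 1 chemokine of the 10. The log2 fold change of Ccl6 in the authors' deposited table is 1.39 (p = 0.00179, false discovery rate 0.0302), and the authors' gene tables hold 6 libraries, without replicate 1 of either genotype.

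Ccl9, a chemokine of myeloid cells encoded next to Ccl6 and a ligand of Ccr1, had 43, 38, 51 and 97 counts in homozygous and 47, 25, 55 and 60 counts in heterozygous libraries. At 1.12, 1.41, 2.05 and 3.16 CPM in homozygous and 1.26, 0.831, 1.51 and 1.57 CPM in heterozygous libraries, replicates 3 and 4 of the homozygous group were above the heterozygous range and the others within it. In edgeR its log2 fold change was 0.57 (SE 0.33, 95% interval -0.15 to 1.3, edgeR adjusted p = 0.396) over 8 and 0.77 (SE 0.31, 95% interval 0.09 to 1.46, edgeR adjusted p = 0.207) over 7 libraries. It was 0.23 and 0.41 in these sets without homozygous replicate 4.

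Cxcl16, a membrane-bound ligand of Cxcr6 that also acts as a scavenger receptor, had 34, 31, 38 and 63 counts in homozygous and 46, 48, 80 and 64 counts in heterozygous libraries. The means were 1.41 ± 0.506 CPM in homozygous and 1.67 ± 0.397 CPM in heterozygous libraries (SD, n = 4 each), and the groups overlapped. Its log2 fold change was -0.26 (SE 0.28, 95% interval -0.87 to 0.36, edgeR adjusted p = 0.664) over 8 libraries and -0.08 (SE 0.27, 95% interval -0.67 to 0.52, edgeR adjusted p = 0.896) over 7. Its sign over 7 libraries turned to 0.11 without homozygous replicate 2 and to 0.08 without heterozygous replicate 3. Cxcl16, Ccl6 and Ccl2 overlap genes on the other strand, and whether strand was used in counting is not given in the sources used here.

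Of the constitutive pair, Cxcl12, or SDF-1, the ligand of Cxcr4, was at 56.7, 53.8, 45.4 and 66.8 CPM in homozygous replicates 1 to 4, against 46.1, 65.3, 59.7 and 56.3 CPM in the heterozygous replicates. The highest and the lowest library were both homozygous, and the groups overlapped. Its log2 fold change was -0.03 (SE 0.13, 95% interval -0.31 to 0.26, edgeR adjusted p = 0.934) over 8 and -0.04 (SE 0.15, 95% interval -0.37 to 0.30, edgeR adjusted p = 0.912) over 7 libraries. The sign turned with single libraries left out, to 0.06 and 0.08 without homozygous replicate 3 and to 0.04 and 0.03 without heterozygous replicate 2.

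Cx3cl1, or fractalkine, was at 684, 578, 623 and 541 CPM in homozygous and 735, 663, 569 and 548 CPM in heterozygous libraries. Replicate 1 was the highest library in each group, and the groups overlapped. For Cx3cl1 the log2 fold change was -0.05 (SE 0.11, 95% interval -0.28 to 0.18, edgeR adjusted p = 0.831) over 8 and -0.11 (SE 0.11, 95% interval -0.36 to 0.13, edgeR adjusted p = 0.587) over 7 libraries. Over 8 libraries it was 0.03 without heterozygous replicate 1. On the log2(TPM + 1) scale, limma gave a difference of -0.32 over 7 libraries (adjusted p = 0.0448, within alternatives of 0.0448 to 0.89), on a scale where the median of all 16560 genes tested was -0.17. In the edgeR fits the 95% intervals of the log2 fold changes of Cxcl12 and Cx3cl1 lay within -0.37 and 0.30, whereas that of Ccl6 reached 2.23.

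**Figure D3:**
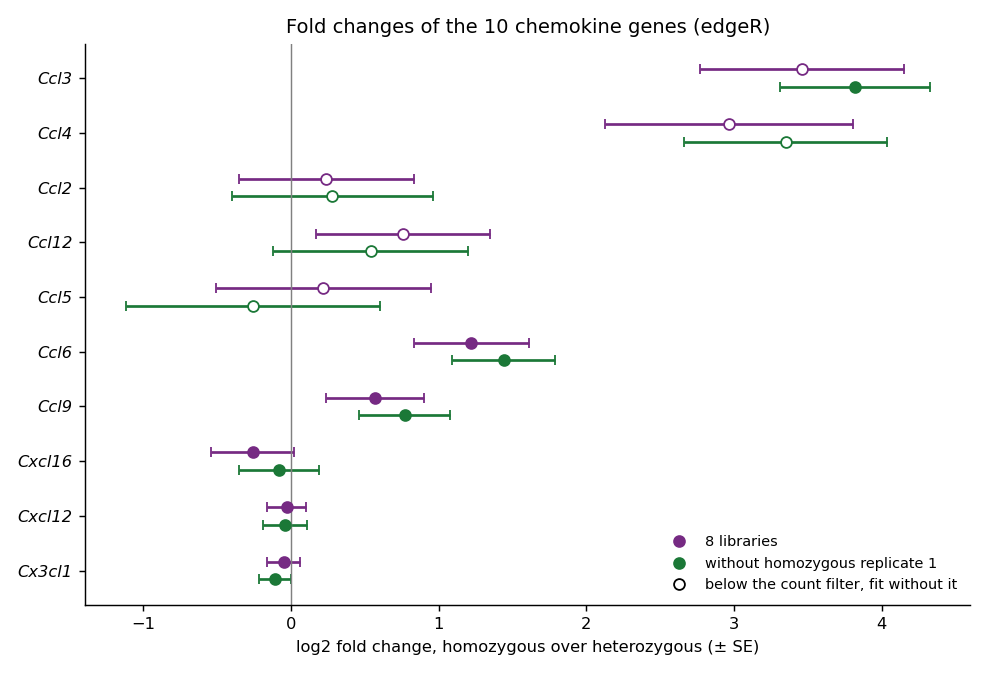
Log2 fold change of homozygous over heterozygous libraries for the 10 chemokine genes with bars of 1 SE, in edgeR fits of 8 libraries (purple) and of 7 libraries without homozygous replicate 1 (green). Open circles are genes below the filter on low counts, taken from a fit without that filter, among them Ccl4 at 2.97 and 3.35, while Cxcl12 and Cx3cl1 lie between -0.11 and -0.03.

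Across the 10 genes, 5 were tested over 8 libraries and 0 passed an adjusted p of 0.05, against 0% of the 16511 genes tested in either direction. At an unadjusted p under 0.05 edgeR found 1 member, Ccl6, where it found 7.87% of all genes higher and 8.9% lower. No tested member had groups that did not overlap, against 4.61% of all genes with the homozygous libraries above and 4.67% with them below. limma-voom called 0 members, and 0 of all genes. DESeq2 called 1 member, where it called 270 of the 16511 genes higher and 409 lower. The median log2 fold change of the 5 was -0.03, with 2 positive and 3 negative, against 0.002 over all genes. Over 7 libraries these 5 and Ccl3 were tested, and Ccl3 was the 1 member called, where edgeR called 0.55% of the 16560 genes tested higher and 0.67% lower. Ccl3 passed the filter only through the homozygous libraries in which it is high, so it had to differ and its call is not set against these shares. Of the other 5, edgeR called 0 over 7 libraries, limma-voom 0 and DESeq2 1, Ccl6. Of the 16560 genes, limma-voom called 78 higher and 79 lower, and DESeq2 431 higher and 652 lower. These totals over all genes apply to the calls in the lists below as well. Among the other 5 members, 2 had an unadjusted edgeR p under 0.05, Ccl6 and Ccl9, both higher, where edgeR found 9.51% of all genes higher and 9.94% lower. The median log2 fold change of these 5 was -0.04, with 2 positive and 3 negative, against 0.003 over all genes. The homozygous libraries were above all heterozygous libraries for 1 of them, Ccl6, and below for 0, against 9.76% and 8.78% of all genes tested. Ccl2, Ccl4, Ccl5 and Ccl12 are outside these counts for their low values.

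The balance between the inducible and the constitutive chemokines can be read within each library. The 5 inducible genes made up 1.18%, 1.02%, 1.82% and 3.48% of the summed TPM of the 10 genes in homozygous replicates 1 to 4, against 0.655%, 0.415%, 0.712% and 0.699% in the heterozygous replicates. Every homozygous library was above every heterozygous one, on 43, 29, 54 and 107 counts in the homozygous and 28, 12, 21 and 21 counts in the heterozygous libraries. Of these 5 genes, Ccl3 alone had groups that did not overlap over 8 libraries. In the library labelled homozygous replicate 1, Ccl12 at 2.45 TPM and Ccl5 at 1.18 TPM were the highest of them. Among single genes tested over 8 libraries, 4.61% had the homozygous libraries above all heterozygous ones. Ccl6, Ccl9 and Cxcl16 together came to 6.95, 7.42, 9.6 and 16.2 TPM in homozygous and 5.58, 5.37, 8.68 and 8.64 TPM in heterozygous libraries, which overlap. Cxcl12 and Cx3cl1 together came to 394, 298, 302 and 306 TPM in homozygous and 425, 396, 336 and 358 TPM in heterozygous libraries. There the library labelled homozygous replicate 1 was within the heterozygous range and the other 3 homozygous libraries were below it, on a scale where the median log2 difference of all genes tested was -0.14 over 8 libraries.

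Of the receptors these ligands bind, edgeR called 0 over 8 and 0 over 7 libraries, with 0 and 2 at an unadjusted p under 0.05, both lower, where 8.9% and 9.94% of all genes were lower at that p over 8 and 7 libraries. DESeq2 called 0 and 1, Cx3cr1, and limma-voom 0 and 0. The list of 18 conventional chemokine receptors held 3 with no count in any library, and 3 genes could be tested over 8 and 4 over 7 libraries, each with a negative log2 fold change. Cx3cr1, the microglial receptor of Cx3cl1, was at 40.4, 23.5, 26.9 and 39.2 CPM in homozygous replicates 1 to 4, against 38.7, 40.8, 46.1 and 40.0 CPM in the heterozygous replicates. Homozygous replicates 2 and 3 were below the heterozygous range and replicates 1 and 4 within it. Its log2 fold change was -0.35 (SE 0.17, edgeR adjusted p = 0.329) over 8 and -0.47 (SE 0.16, edgeR adjusted p = 0.164) over 7 libraries. Over 7 libraries it was called by DESeq2 (adjusted p = 0.0496), by limma on the log2 TPM scale (adjusted p = 0.0337), and by edgeR when homozygous replicate 4 was also left out (-0.72, adjusted p = 0.0138), within alternatives of 0.0138 to 0.429.

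Cxcr4, the receptor of Cxcl12, averaged 1.57 ± 0.264 CPM in homozygous and 1.65 ± 0.654 CPM in heterozygous libraries (SD, n = 4 each, log2 fold change -0.07, edgeR adjusted p = 0.918). Ccr1, a receptor of Ccl3, did not exceed 0.457 CPM in homozygous and 0.366 CPM in heterozygous libraries. Ccr2, the receptor of Ccl2 and Ccl12, did not exceed 0.235 CPM in homozygous and 0.497 CPM in heterozygous libraries. Cxcr6, the receptor of Cxcl16, had 0 CPM in all 4 homozygous libraries and 0.0274 to 0.0785 CPM in the heterozygous ones, both at or under the floor.

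**Figure D4:**
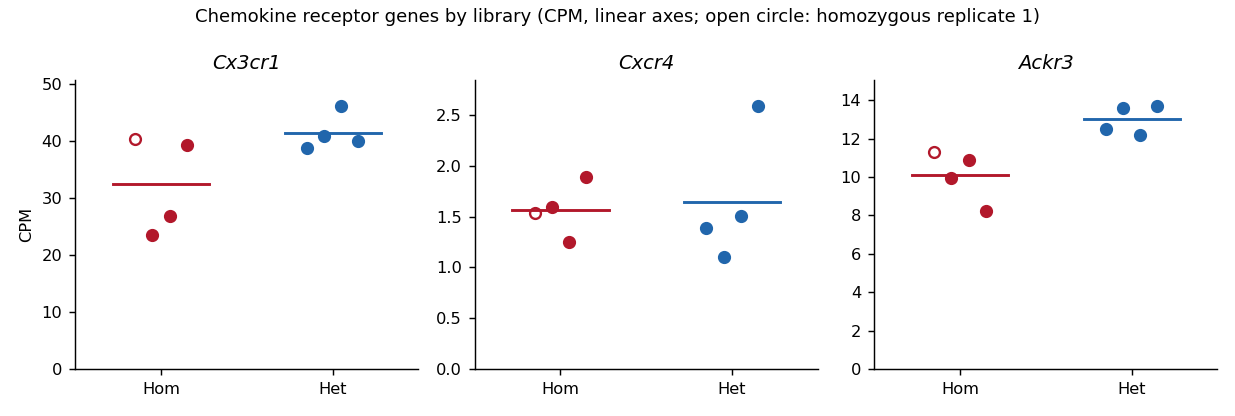
Level in CPM of the receptor genes Cx3cr1, Cxcr4 and Ackr3 in each library on linear axes that start at 0, with a line at the group mean, homozygous left of heterozygous, and the library labelled homozygous replicate 1 as an open circle. Ackr3 is lower in all 4 homozygous libraries (8.25 to 11.3 CPM) than in any heterozygous one (12.2 to 13.7 CPM), and the groups overlap for the other two.

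Of 5 atypical receptors, which take up chemokines without classical signalling, 5 were tested and edgeR called 0 in either fit, with 2 positive and 3 negative log2 fold changes and 1, Ackr3, lower at an unadjusted p under 0.05, against 8.9% and 9.94% of all genes. With limma-voom there were 0 calls, and with DESeq2 0 over 8 and 1, Ackr3, over 7 libraries. Ackr3, which binds and clears Cxcl12, averaged 10.1 ± 1.36 CPM in homozygous and 13 ± 0.768 CPM in heterozygous libraries (SD, n = 4 each), and the groups did not overlap. Its log2 fold change of -0.36 (SE 0.11, edgeR adjusted p = 0.157) over 8 and -0.43 (SE 0.11, edgeR adjusted p = 0.0918) over 7 libraries did not pass. Of all genes tested over 8 libraries, 4.67% had the homozygous libraries below all heterozygous ones. Ackr1, a chemokine receptor of red cells and venules, averaged 35.4 ± 2.41 CPM in homozygous and 32.0 ± 2.21 CPM in heterozygous libraries, with a log2 fold change of 0.14 over 8 libraries. Those of Ackr2, a scavenger of CC chemokines, and Ccrl2 were 0.46 and -0.16.

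Of 6 genes that cleave chemokines, 5 were tested and edgeR called 0, with 2 and 3 lower at an unadjusted p under 0.05 over 8 and 7 libraries, against 8.9% and 9.94% of all genes. With limma-voom there were 0 calls, and with DESeq2 0 and 1, Adam17. All 5 had negative log2 fold changes in both fits (median -0.40 over 8 and -0.45 over 7 libraries, against 0.002 and 0.003 over all genes). Adam17, a sheddase of Cx3cl1 and Cxcl16, was at 14.0, 10.6, 10.2 and 13.6 CPM in homozygous and 14.5, 14.8, 17.2 and 17.5 CPM in heterozygous libraries. The groups did not overlap, and the log2 fold change of -0.40 (SE 0.12, edgeR adjusted p = 0.166) over 8 and -0.48 (SE 0.13, edgeR adjusted p = 0.0889) over 7 libraries did not pass. Homozygous libraries lay below all heterozygous ones for 4.67% of all genes tested over 8 libraries. Adam10, the other sheddase of both ligands, averaged 86.4 ± 5.07 CPM in homozygous and 94.6 ± 3.29 CPM in heterozygous libraries (log2 fold change -0.13 over 8 libraries, edgeR adjusted p = 0.308). Mmp2 and Mmp9, matrix metalloproteinases that trim chemokines, had log2 fold changes of -0.42 and -0.62 over 8 libraries.

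Of 28 other chemokine ligand genes, 5 had no count, 8 were tested over 8 and 9 over 7 libraries, and edgeR called 0, with 1 higher over 8, and 2 higher and 1 lower over 7, at an unadjusted p under 0.05. Of all genes 7.87% were higher at that p over 8 libraries, and 9.51% higher and 9.94% lower over 7. With limma-voom there were 0 calls, and with DESeq2 1, Ccl25, over 8 and 0 over 7 libraries. Those with the highest TPM were Ccl27a, Cxcl14, Ccl25 and Ccl17, with means of 185, 60.6, 5.32 and 2.3 TPM over the 8 libraries. Ccl27a and Cxcl14 thus stood above Cxcl12. Ccl25, a chemokine known from thymus and gut, was at 3.68, 3.27, 3.71 and 3.75 CPM in homozygous and 2.59, 2.43, 2.58 and 2.49 CPM in heterozygous libraries. All 4 homozygous libraries, replicate 1 included, were above the heterozygous range, with a log2 fold change of 0.52 (SE 0.12, edgeR adjusted p = 0.13) over 8 and 0.50 (SE 0.14, edgeR adjusted p = 0.104) over 7 libraries that did not pass. Homozygous libraries lay above all heterozygous ones for 4.61% of all genes tested over 8 libraries. Cxcl14 averaged 59.2 ± 6.3 CPM in homozygous and 63.0 ± 6.34 CPM in heterozygous libraries, and Ccl27a, whose close copies make its counts less certain, 50.4 ± 4.73 and 51.5 ± 7.05 CPM. Ccl17 had a log2 fold change of 0.10 over 8 libraries.

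Of 19 genes that induce NF-kappaB or are induced by it, 16 were tested over 8 and 17 over 7 libraries and edgeR called 0, with 6 at an unadjusted p under 0.05 in each fit, 3 higher and 3 lower. Of all genes 7.87% were higher and 8.9% lower at that p over 8 libraries, and 9.51% and 9.94% over 7. With limma-voom there were 0 calls. DESeq2 called 1 over 8 libraries, Nfkbiz, higher. Over 7 libraries it called 4, Nfkbiz and Tlr2 higher and Nfkbie and Vcam1 lower. Rela, a subunit of NF-kappaB, averaged 17.6 ± 1.26 CPM in homozygous and 17.6 ± 1.45 CPM in heterozygous libraries (SD, n = 4 each). Nfkbia, the inhibitor that NF-kappaB itself induces, averaged 24.6 ± 4.78 CPM in homozygous and 23.5 ± 3.0 CPM in heterozygous libraries. The log2 fold changes of Nfkb1, another subunit, and Vcam1, an adhesion molecule among its targets, were -0.18 and -0.39 over 8 libraries.

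The genes whose levels were most like that of Ccl3 over the 8 libraries, among all genes tested with predicted genes left out, were Clec7a, Tctex1d2, Fcer1g, Cd68 and Snhg17. Pearson's r of the log2 CPM was 0.987 for Clec7a, a pattern recognition receptor, 0.98 for Tctex1d2, 0.969 for Fcer1g, a signalling chain of Fc receptors, 0.967 for Cd68, a lysosomal protein of macrophages, and 0.964 for Snhg17, over n = 8 libraries. These are the highest of many correlations, are described without a test, and rest on libraries of both genotypes. Clec7a was at 0.653, 2.05, 3.63 and 5.61 CPM in homozygous replicates 1 to 4, against 0.588, 0.332, 0.575 and 0.471 CPM in the heterozygous replicates. Both Ccl3 and Clec7a were lowest among homozygous libraries in replicate 1 and highest in replicate 4.

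Among the members, r with Ccl3 over the same 8 libraries was 0.921 for Ccl6, 0.899 for Ccl4 and 0.788 for Ccl9. It was 0.526 for Ccl2, 0.127 for Ccl12, 0.08 for Ccl5, 0.046 for Cxcl16, -0.176 for Cxcl12 and -0.277 for Cx3cl1. The genes most like Cxcl12 were Slc31a2 and Wdr83 (both r = 0.964), Mfng (0.953), Nap1l3 (0.941) and Serpina3c (0.936). Those most like Cx3cl1 were Fscn1 (0.981), Arc (0.98), Etv5 (0.976), Ints12 (0.975) and Phf24 (0.975). By Pearson's r the members with the closest pattern to Ccl3 were its neighbours on chromosome 11, while Ccl5, 42.4 kb from Ccl9, was not among them. Spearman's rank correlation did not keep this order. It was 0.929 for Ccl6, 0.714 for the more distant Ccl2, 0.643 for Ccl4 and 0.595 for Ccl9.

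**Figure D5:**
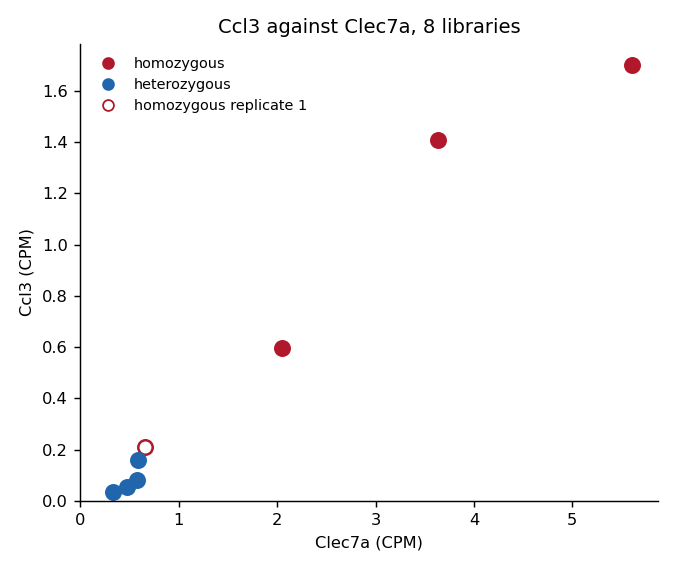
Level of Ccl3 in CPM (vertical axis) against that of Clec7a in CPM (horizontal axis), with 1 point per library, homozygous in red, heterozygous in blue, and the library labelled homozygous replicate 1 as an open circle. The 4 heterozygous libraries and the open circle lie at or below 0.653 CPM of Clec7a and 0.209 CPM of Ccl3, and homozygous replicates 2, 3 and 4 extend to 5.61 and 1.70 CPM.

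Marker genes of microglia also differed between libraries, in both directions. The summed level of 14 microglial genes was 493, 456, 489 and 616 CPM in homozygous and 458, 433, 526 and 455 CPM in heterozygous libraries, which overlap. Over 7 libraries edgeR called 2 of the 14 higher, C1qa and C1qb, and 1 lower, Tmem119, where it called 0.55% of all genes higher and 0.67% lower. C1qa, a complement gene of microglia, was at 52.4, 70.5, 70.3 and 94.3 CPM in homozygous and 46.2, 39.4, 48.3 and 42.3 CPM in heterozygous libraries, and C1qa, C1qb and C1qc were each above every heterozygous library in all 4 homozygous ones. The same held for 4.61% of all genes tested over 8 libraries. Tmem119, of homeostatic microglia, was at 21.9, 12.5, 15.5 and 16.4 CPM in homozygous and 22.3, 20.4, 24.0 and 20.7 CPM in heterozygous libraries. The summed level of 12 genes of disease-associated microglia was 2239, 2508, 2497 and 2876 CPM in homozygous and 2081, 2043, 2332 and 2144 CPM in heterozygous libraries. Over 7 libraries 4 of the 12 were called higher, Clec7a, Cd68, Itgax and Cst7, where edgeR called 0.55% of all genes higher. Itgax and Cst7 passed the filter only through the homozygous libraries in which they are high, so their calls are not set against this share. Cst7, with 14 heterozygous counts in all, was below the filter over 8 libraries. The part of microglial number or state in the Ccl3, Ccl4 and Ccl6 values was not tested.

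Markers of blood cells also differed between libraries. The summed level of 8 monocyte and neutrophil genes was 4.57, 10.5, 6.25 and 31.9 CPM in homozygous and 6.81, 5.05, 10.7 and 8.43 CPM in heterozygous libraries. Homozygous replicate 4, the highest library for Ccl3, Ccl4, Ccl6, Ccl9 and Ccl12, was also the highest for S100a8 at 11.9, S100a9 at 17.3, Mpo at 1.44 and Elane at 0.391 CPM, while Ly6g was at or under the floor in every library. The summed level of 6 border macrophage genes was 5.28 to 8.25 CPM in homozygous and 5.32 to 10.4 CPM in heterozygous libraries. That of 10 T and NK cell genes was 9.27, 10.4, 1.41 and 1.63 CPM in homozygous and 2.59, 1.33, 1.56 and 3.32 CPM in heterozygous libraries, and was high in homozygous replicates 1 and 2 through Cd4, at 8.28 and 9.79 CPM. The part of blood cells in the chemokine values was not tested. Without homozygous replicates 1 and 4 the log2 fold change of Ccl3, again admitted by the filter through its homozygous values, was 3.51 (SE 0.56, edgeR adjusted p = 0.0217).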

How the data were processed

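The submitters' processing notes name cutadapt, STAR, RSEM, Picard and the build mm10. Their versions, the annotation and the strand setting were not given in the sources used here. Per the file headers, the authors deposited RSEM expected counts with TPM and FPKM for each gene. Their deposited comparison holds log2 fold changes, log2 CPM and p-values with false discovery rates, and their deposited sequencing report holds percent and other quality values and scores per library, per the file headers. FPKM and the demultiplexing summary were not used further.

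Expected counts were rounded. CPM use the TMM-scaled library size. Homozygous and heterozygous groups follow the genotype label. Titles number the animals singly, replicate numbers follow accession order, and p-values measure the spread between these animals. edgeR 4.0.16 (R 4.3.3) tested the groups by its quasi-likelihood method (robust, TMM scaling, filterByExpr), with p adjusted by Benjamini-Hochberg over all genes tested and called at 0.05; it was also tested on simulated data. SE and 95% intervals are those of the log2 fold change. Members below the filter had exact two-sided permutation tests on CPM. Likeness was Pearson's r of log2(CPM + 0.1), with Spearman's rank correlation of the same values given for some members. The floor of 3 counts covers counting error only. Alternatives used DESeq2 1.42.0 and limma 3.58.1 (voom, and log2(TPM + 1)), other filters and size factors, an adjusted p of 0.1 and each library left out. Positions are from GENCODE M21 (47224 of 47643 identifiers matched) and promoters from RefSeq. Tables and figures were made in Python 3.11.15 (pandas 2.3.3; scipy 1.17.1; matplotlib 3.10.9).

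The members, gene lists and alternatives were chosen with earlier results of these data known. Genes named beyond the members were Arf1, the 4 with the highest mean TPM in each other chemokine list, any called in those lists, and the 5 most like Ccl3, Cxcl12 and Cx3cl1. An item that this rule would name is not reported here. Ccr1, Ccr2, Cxcr6 and the marker genes given as values were chosen after their values were seen.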

Additional observations from a re-analysis of the deposited data

Results flagged for a closer look

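The Arf1 level of the library labelled homozygous replicate 1, 307 CPM, lay far from the 22.5 to 39.9 CPM of the other 3 homozygous libraries. Its gap to the nearest of them was 0.939 of the range of the group, above the critical value for 4 libraries. Of 22 gene and group sets examined, for the 10 chemokine genes and Arf1, this was the 1 set with a library apart, and chance marks about 1 in 20.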

How the results depend on the processing

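Over 8 libraries the 0 calls among all genes became 63 without a filter on low counts, 679 with DESeq2, 1 with limma on log2(TPM + 1) and 71 at an adjusted p of 0.1, and ran from 0 to 202 with 1 library left out (40 without heterozygous replicate 1, 202 without homozygous replicate 1). The 0 chemokine calls became 1, Ccl6, with DESeq2, and 0 to 1 with 1 library left out. Over 7 libraries the 202 calls became 444 without the filter, 1083 with DESeq2, 2190 (95 higher, 2095 lower) with limma on log2(TPM + 1), 834 at an adjusted p of 0.1 and 114 with Xist as a covariate, and ran from 6 (without homozygous replicate 3) to 402 (without homozygous replicate 4). The 1 chemokine call, Ccl3, became 2 without the filter (with Ccl4), 2 with limma on log2(TPM + 1) (with Cx3cl1, lower), 2 at an adjusted p of 0.1 (with Ccl6) and 0 with at least 1 CPM in 3 libraries, where Ccl3 was not tested. It ran from 0 to 1 with 1 library left out. DESeq2 gave Ccl3 no adjusted p and called Ccl6. The log2(TPM + 1) scale moved the median of all genes by -0.14 over 8 and -0.17 over 7 libraries. The causes of these shifts were not tested. Signs turned for Cxcl12 (0.06 without homozygous replicate 3 and 0.04 without heterozygous replicate 2 over 8 libraries, 0.08 and 0.03 over 7), for Cx3cl1 (0.03 without heterozygous replicate 1 over 8) and for Cxcl16 (0.11 without homozygous replicate 2 and 0.08 without heterozygous replicate 3 over 7). With 1 library left out they ran from -0.13 to 0.06 and -0.2 to 0.08 for Cxcl12, -0.11 to 0.03 for Cx3cl1 and -0.32 to 0.11 for Cxcl16. The 1 permutation result at 0.0286, for Ccl3, was the same on TPM and on unscaled CPM. With 1 library left out it cannot go below 0.0571, so it was not repeated. The Xist covariate and both rescaled permutation tests were chosen after seeing the data. No paired analysis was possible because the titles carry 1 animal number each and the replicate numbers follow accession order. With 3 counts worth 0.0784 to 0.121 CPM, Ccl2, Ccl4, Ccl5 and Ccl12 are near the limit of detection in most libraries.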

Other observations

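Ccl6 and Ccl9, neighbours on chromosome 11, differed in balance between the genotypes when read as counts. The Ccl6 count over the Ccl9 count was 1.6, 1.42, 1.88 and 1.94 in homozygous replicates 1 to 4, against 1.21, 1.2, 1.25 and 0.933 in the heterozygous replicates, so that the groups did not overlap and the library labelled homozygous replicate 1 was with its label. On the TPM scale the ratio was 1.36, 1.11, 2.2 and 2.89 in homozygous and 1.32, 0.837, 1.72 and 0.522 in heterozygous libraries, which overlap. An exact two-sided permutation test of the TPM ratio gave p = 0.171 over 8 libraries and 0.171 over 7, as 1 of 5 ratios tested in this way without adjustment. The ratio of counts was chosen after its values were seen and was not tested.

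Some other genes of the lists stood apart between the groups without passing edgeR's test, and were also chosen after their values were seen. Of all genes tested over 8 libraries, 4.61% had the homozygous libraries above all heterozygous ones and 4.67% below. Over 7 libraries these shares were 9.76% and 8.78%. The genes of the NF-kappaB list went in both directions. Nfkbie was at 2.56, 1.38, 2.14 and 1.86 CPM in homozygous and 2.81, 3.09, 2.93 and 3.04 CPM in heterozygous libraries. DESeq2 called it lower over 7 libraries, as it did Vcam1. Nfkbiz, an NF-kappaB cofactor, was at 4.44, 4.91, 4.63 and 4.14 CPM in homozygous and 3.10, 3.03, 3.18 and 3.12 CPM in heterozygous libraries (log2 fold change 0.54, edgeR adjusted p = 0.117 over 8 libraries and 0.073 over 7), and DESeq2 called it higher in both sets (adjusted p = 0.0105 and 0.0271). Tlr2, a receptor for bacterial lipoproteins, averaged 2.37 ± 0.895 CPM in homozygous and 1.33 ± 0.209 CPM in heterozygous libraries (SD, n = 4 each, edgeR adjusted p = 0.178 over 8 libraries and 0.104 over 7), and DESeq2 gave an adjusted p of 0.0834 over 8 and called it over 7 (adjusted p = 0.0416). Over 7 libraries Cxcl5, a neutrophil attractant, averaged 0.268 ± 0.152 CPM in homozygous and 0.794 ± 0.133 CPM in heterozygous libraries (SD, n = 3 and 4, log2 fold change -1.52, edgeR adjusted p = 0.0816), and Cxcl10, an interferon-induced chemokine, 0.539 ± 0.139 and 0.241 ± 0.116 CPM (log2 fold change 1.12, edgeR adjusted p = 0.178). DESeq2 gave no adjusted p for Cxcl5 and Cxcl10. Over 7 libraries Cxcl5 passed the filter on low counts only through the heterozygous libraries, and Cxcl10 only through the homozygous ones. Each was admitted through the group in which it is high, so the separation of Cxcl5 and Cxcl10 is not set against the shares above.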
